A study of Mus musculus with 60 samples.

Results

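Small nucleolar RNAs (snoRNAs) were followed across 19 drugs and their solvent in mouse embryonic stem cells, through the 56 probe sets whose single gene symbol begins with Snora or Snord. These 56 stand for 51 symbols and were taken from 21789 probe sets with a single symbol, in a table of 35556. Names beginning with Snord, given to the box C/D class, account for 33 probe sets and 31 symbols, and names beginning with Snora, given to the box H/ACA class, for 23 probe sets and 20 symbols. RefSeq lists every one of these 56 under its symbol and types 55 as snoRNA. The probe sets are not independent where they share a symbol: the Snord118 pair and the Snora30 pair held identical values on all 60 arrays, and the pairs for Snora3 and Snord58b were near copies of each other. The Snora21 pair was less alike, differing by up to 0.35 in log2 signal on an array.

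R1, an established mouse embryonic stem cell line, was kept on a feeder layer, which was removed before the cells, still undifferentiated, met a compound or the solvent for 6 h, and RNA was measured on Affymetrix arrays in 20 groups of 3. The 10 groups that the labels class as teratogens received penicillamine (1 mM), thalidomide (0.35 mM), azacytidine, retinoic acid (0.024 mM), dexamethasone (0.1 mM), dimethadione (1 mM), fluconazole (1 mM), topiramate (1 mM), methotrexate (0.028 µM) or valproic acid (VPA, 1 mM). The 9 classed as non-teratogens received chlorthalidone (1 mM), clozapine (0.028 mM), glybenclamide (0.37 mM), hydrochlorothiazide (1 mM), loratadine (0.043 mM), metoclopramide (0.17 mM), ondansetron (0.054 mM), paracetamol (1 mM) or sulfasalazine (1 mM), and the control group received the solvent, DMSO at 0.1%. The azacytidine dose is not settled, since the labels give 0.23 µM in one place and 23 µM in another. All groups share the R1 line, a single genetic background. The labels give 0.1% DMSO for every compound group too, so the control group received the solvent alone. The 10 pluripotent cell markers listed (Pou5f1, Nanog, Sox2 and others) all lay above the median probe set, with summed levels (means of the list) of 11.89 to 11.90 on VPA arrays and 12.17 to 12.20 on DMSO arrays. The 10 fibroblast markers, listed because feeders could remain, averaged 8.92 to 8.96 on VPA arrays and 8.94 to 9.00 on DMSO arrays, with 3 of the 10 below the median probe set. With VPA 6 of the 10 pluripotent cell markers were called lower than with DMSO, where 11% of all probe sets tested were. The median log2 fold change over these 10 was −0.24 (Nanog −0.68, Zfp42 −0.52), and their part in the results was not tested.

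snoRNAs are short RNAs that work in the nucleolus as guides. Box C/D snoRNAs, bound by fibrillarin, Nop56, Nop58 and Snu13, direct methylation of the ribose in ribosomal RNA, while box H/ACA snoRNAs, bound by dyskerin, Nop10, Nhp2 and Gar1, direct the conversion of uridine to pseudouridine. A few, among them U3, U8, U14, U17 and U22, are needed for cleavage of the ribosomal RNA precursor rather than, or as well as, for modification. Most mammalian snoRNAs have no promoter of their own: they lie in introns of host genes and are trimmed out of the spliced intron. Many hosts are ribosomal protein genes or noncoding genes such as Gas5 and the Snhg family, and such hosts often start transcription at a C within a run of pyrimidines (a 5′ terminal oligopyrimidine start).

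RefSeq places 54 of the 56 probe sets' genes inside another gene, 42 in a protein-coding and 12 in a noncoding one, and the remaining 2, both for Snord118, in none. The host genes numbered 40, of which 31 have an entry in the RefSeq promoter table (GRCm38.p6). The start letters were read because the hosts, not the snoRNAs, carry the promoters. The motif was CNNNN beginning at the annotated start, read on the gene's own strand, with each N being C or T. It stood at a start of 6 of the 31 hosts (19.4%), against 3.01% of the 27025 genes in that table, and within 5 bases of a start in 45.2% of hosts, against 21.2% of all genes. Annotated starts can be off by some bases, and a match is not evidence of how the gene is controlled. The windows of those 6 hosts are given with the 20 bases before the start and the 10 from it, with the pyrimidine run in capitals, followed by 2 hosts without the run, Ncl and Nop56, whose snoRNAs are described further on.
Gas5, host of Snord47, chr1:161035146-161035175, plus strand: gactcagccgccatctcagcCTTTCggagc
1110038B12Rik, host of Snord52, chr17:34952459-34952488, minus strand: gaggcgggcggcacacgggtCTCTTtgtgc
Rack1, host of Snord95 and Snord96a, chr11:48800340-48800369, plus strand: tccggcggaggccgctctttCTTTTtctcc
Gm36220, host of Snord104, chr11:106500895-106500924, plus strand: ggccacacgtccattccggcCTCTTatcga
Ipo7, host of Snora23, chr7:110018295-110018324, plus strand: gggccttggcgcttctctttCCTTTcgcgc
Rplp2, host of Snora52, chr7:141447631-141447660, plus strand: cccactgcgtcagcgtcttcCTTTCgccgc
Ncl, host of Snora75 and Snord82, chr1:86359446-86359475, minus strand: cggttggctccggggacggacgcgagctct
Nop56, host of Snord57, chr2:130274392-130274421, plus strand: ggagaaggtgtggtctccgcagtctggttc

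With VPA, an antiepileptic drug that inhibits histone deacetylases, snoRNA probe sets fell broadly. Of the 56, 41 were called lower than in DMSO (73.2%), where 11% of all probe sets tested were called lower, and none was called higher, where 15.5% of all were. The median log2 fold change of the 56, VPA over DMSO, was −0.41, a ratio of 0.751, and that of all probe sets tested was −0.01. Calls are those with an adjusted p under 0.05 from limma fitted to all 60 arrays and adjusted over the 21789 probe sets, and the labels do not say that the 3 arrays of a group came from separate cultures, so p-values measure the spread between these arrays only. In bulk RNA, fewer cells holding a transcript and less of it per cell cannot be told apart, nor can the finished snoRNA and the unspliced host intron that contains it.

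The mean log2 signal of the 56 probe sets was 8.83, 8.80 and 8.81 on the 3 VPA arrays, against 9.26, 9.12 and 9.34 on the 3 DMSO arrays. All 3 VPA arrays lay below every other array of the series, where the next lowest was a paracetamol array at 8.95. Individually, 47 probe sets had all 3 VPA arrays below all 3 DMSO arrays, while 19.6% of all probe sets did. For 41 probe sets VPA had the lowest mean of the 20 groups. DMSO was not itself unusually high, since its mean ranked 14th from the lowest of 20 groups.

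**Figure D1:**
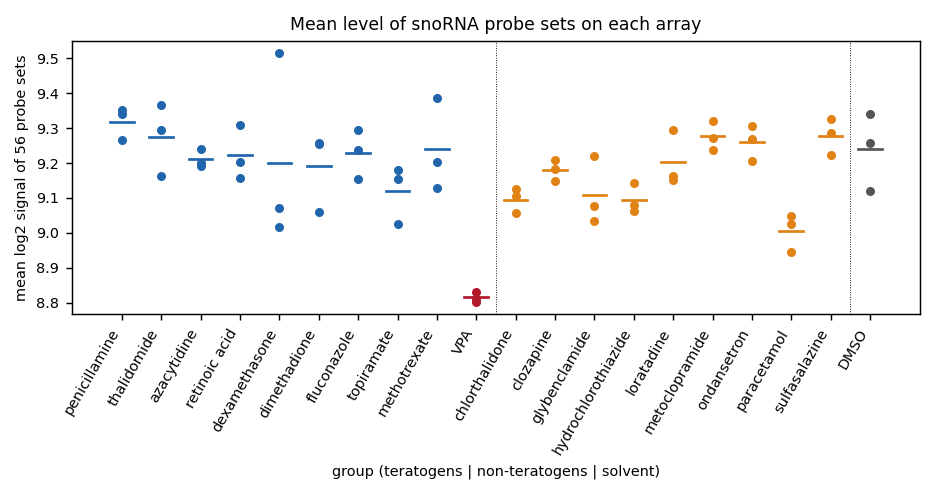
Mean log2 signal of the 56 snoRNA probe sets (vertical axis) on each array (point), by group (horizontal axis), with the group mean as a bar; teratogens stand left of the first dotted line, non-teratogens between the lines and DMSO at the right. The 3 VPA arrays sit between 8.80 and 8.83, below the DMSO arrays at 9.12 to 9.34, and dexamethasone replicate 3 is the highest array at 9.51.

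A contrast of VPA with the mean of the other 18 compounds, which uses no DMSO array, called 43 of the 56 lower and none higher, against 15.6% of all probe sets called lower and 19.1% called higher. Its median over the 56 was −0.41 and that over all probe sets tested was 0.01. The contrast was added after the VPA result was known.

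Snord52, a box C/D RNA in an intron of the noncoding gene 1110038B12Rik, fell most. Its log2 signal was 8.04, 8.12 and 8.20 with VPA, against 8.90, 8.81 and 9.16 with DMSO. Every VPA array was below every DMSO array, and the log2 fold change was −0.84 ± 0.1056 (SE, adjusted p 1.11e-08, limma), a ratio of 0.56. Snora75 (U23), a box H/ACA RNA in the nucleolin gene Ncl, had 7.40, 7.39 and 7.29 with VPA and 8.07, 7.88 and 8.35 with DMSO. The groups were again apart, with a fold change of −0.74 ± 0.1105. Snora74a (U19), in the noncoding host Snhg4, had 9.16, 8.95 and 9.22 with VPA and 9.81, 9.73 and 9.91 with DMSO, a fold change of −0.71 ± 0.1003.

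Next came Snora33 in Rps12 (−0.66), Snora69 (U69) in Rpl39 (−0.66) and Snord73b (U73) in Rps3a1 (−0.65). Snora3 in Rpl27a (−0.64 and −0.63 by its 2 probe sets), Snord42a (U42) in Rpl23a (−0.64), Snord33 (U33) in Rpl13a (−0.62) and Snord49a in 2410006H16Rik (−0.62) followed. Snord33 shares its host with Snord35a, and the snoRNAs of Rpl13a are known from hamster cells as mediators of damage by excess fatty acid. Snord33 read 9.68, 9.74 and 9.72 with VPA and 10.27, 10.34 and 10.38 with DMSO, with no overlap. Snord35a read 10.47, 10.58 and 10.53 with VPA and 10.91, 10.73 and 11.01 with DMSO. Its arrays did not overlap either, but at −0.36 ± 0.1743 it was not called (adjusted p 0.129, limma).

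**Figure D2:**
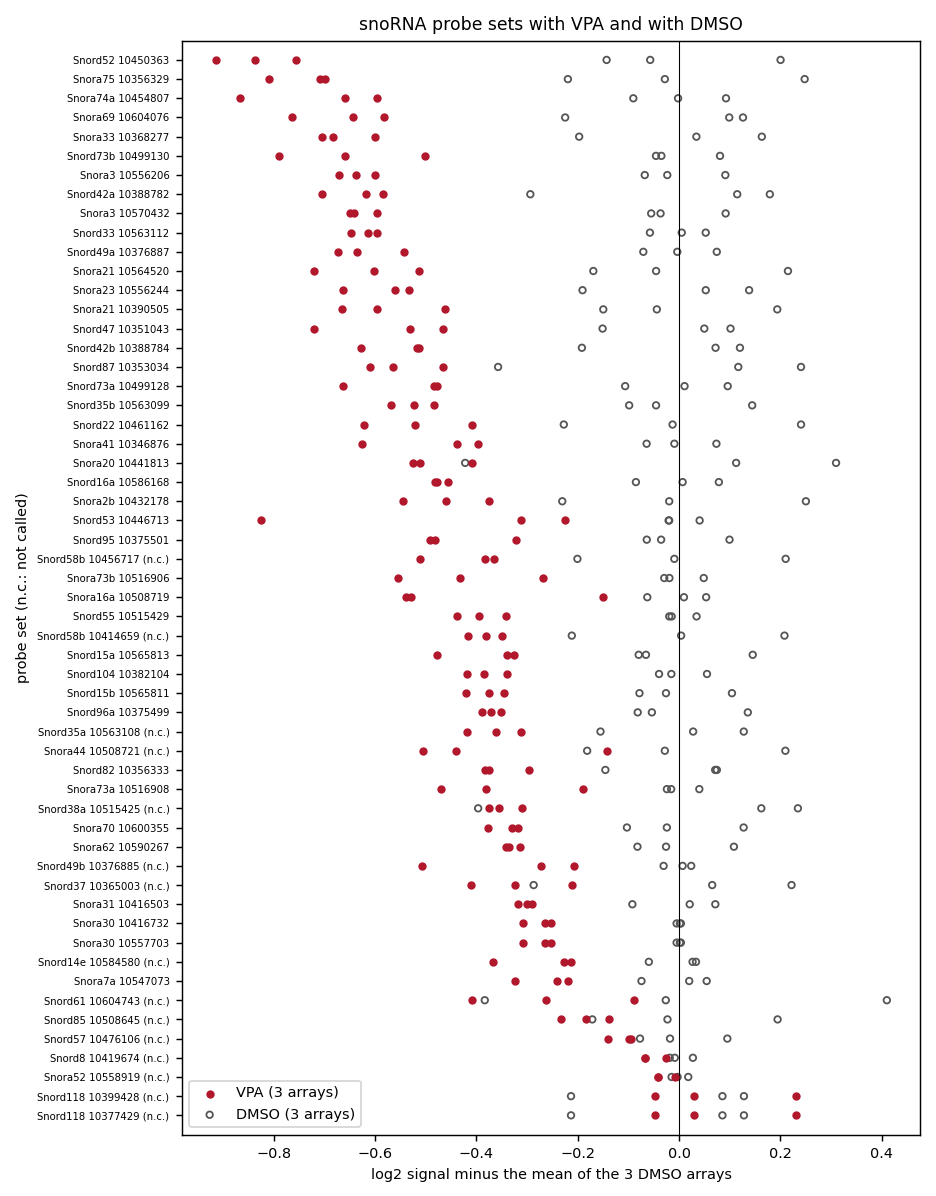
Log2 signal of each snoRNA probe set (rows, by symbol and probe set number, sorted by fold change) on the 3 VPA arrays (filled) and the 3 DMSO arrays (open), minus the mean of the 3 DMSO arrays; n.c. marks the 15 that were not called. In 47 rows all VPA points lie left of all DMSO points, and in the 2 Snord118 rows they overlap around 0.

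Members needed for cleavage of the ribosomal RNA precursor are given next, and differences between them were not tested. Snora73a and Snora73b (U17, named E1 in early work), both in Snhg3, fell. Snora73b had 10.84, 10.55 and 10.68 with VPA and 11.08, 11.09 and 11.16 with DMSO, a fold change of −0.42 ± 0.1079, and Snora73a fell by 0.35. Snord22 (U22), which in Xenopus is required for 18S rRNA, read 7.86, 7.65 and 7.75 with VPA and 8.26, 8.04 and 8.51 with DMSO (−0.52 ± 0.1058). Snord14e, of the U14 family that yeast needs for 18S rRNA, was not called. Its 3 VPA arrays lay below the DMSO arrays, with a fold change of −0.27 ± 0.1242 (adjusted p 0.111, limma). Other U14 probe sets carry several symbols and were tested in the separate fit described in the closing section. There the probe set for Snord14a and Rps13 was called lower with VPA (−0.56, adjusted p 0.00392, limma). Those for Snord14d, Snord14c and Hspa8 were also called lower (−0.31 each, adjusted p 0.0054 and 0.00498, limma). Such probe sets can read any of their genes, and which of them fell was not tested.

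Snord118 (U8), which in Xenopus is required for 5.8S and 28S rRNA and which lies in no host gene, had 7.57, 7.29 and 7.37 with VPA and 7.42, 7.13 and 7.47 with DMSO. These values overlap, and the fold change of 0.07 ± 0.2344 (adjusted p 0.889, limma) came with one of the widest spreads of any member. Against the mean of the other 18 compounds its difference was 0.25 ± 0.1703 (adjusted p 0.29, limma), where the median of the 56 was −0.41, and whether U8 differed from the other members was not tested. The rest of the 15 uncalled probe sets had fold changes between −0.42 and −0.03. Of these, Snord57 (U57) in Nop56, Snord8 in Chd8 and Snora52 in Rplp2 lay nearest 0, at −0.11 ± 0.08807, −0.05 ± 0.09151 and −0.03 ± 0.05311. Snora52 read 13.26, 13.23 and 13.23 with VPA and 13.26, 13.25 and 13.29 with DMSO. Snora52 and Snord57 are also the brightest probe sets of the 56 by mean signal (13.21 and 13.17).

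By class, 20 of the 33 box C/D probe sets and 21 of the 23 box H/ACA probe sets were called lower with VPA, with median log2 fold changes of −0.38 and −0.46. Length showed a similar split, with 23 of 27 probe sets for genes of 100 nt or more called lower and 18 of 29 for shorter ones, although the medians were close (−0.41 and −0.42). Among those in noncoding hosts 10 of 12 were called, and among those in protein-coding hosts 31 of 42. These differences between classes were not tested, since members share hosts and probe sets.

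Host genes, read by their brightest probe sets, mostly had smaller fold changes than the snoRNAs inside them. Of the 40 hosts, 24 had a probe set of their own with a single symbol, covering 31 of the 56 snoRNA probe sets, and the brightest was chosen where a host had several. Over these 24 hosts the median log2 fold change with VPA was −0.11, and over the 31 snoRNA probe sets it was −0.46. In 16 of the 31 the snoRNA was called lower and the host was not, in 9 both were, in 2 only the host was, and in 4 neither was. Counting a host as called lower when any of its probe sets was, those 4 counts were 13, 12, 2 and 4. The snoRNA had the lower fold change in 25 of the 31, and in 24 it lay below every probe set of its host. The difference between a snoRNA and its host was not tested, and probe sets can differ in how far their signal follows an RNA level.

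The 10 ribosomal protein genes measured as hosts had fold changes from −0.16 to −0.01 by their brightest probe sets, and 2 of them (Rpl27a and Rpsa) were called lower, while of the 15 snoRNA probe sets in their introns 14 were called lower, with a median of −0.55. Over all 53 probe sets of these 10 hosts the fold changes ran from −0.23 (Rpl27a) to −0.01. Of the 53, 14 were called lower, where 11% of all probe sets tested were. They belonged to 4 of the hosts, since 3 of 14 for Rps12 and 1 of 2 for Rpl23 were called too. Of the 15 snoRNA probe sets 14 lay below every probe set of their host. Rpl23a had 12.36, 12.37 and 12.40 with VPA and 12.46, 12.41 and 12.46 with DMSO, a fold change of −0.06 ± 0.04937, and was not called (adjusted p 0.399, limma). Inside it, Snord42b read 9.74, 9.74 and 9.63 with VPA and 10.38, 10.06 and 10.33 with DMSO, a fold change of −0.55 ± 0.09567. Several ribosomal protein genes have many near-identical copies in the genome (14 probe sets carry the symbol Rps12), so their signals can mix copies. Ncl, which is not a ribosomal protein gene, read 12.78, 12.74 and 12.74 with VPA and 12.96, 12.84 and 12.98 with DMSO (−0.17 ± 0.06805, adjusted p 0.0541, limma), against −0.74 for Snora75 and −0.35 for Snord82 (U82) in its introns.

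Other hosts fell with their snoRNAs or without them. Gas5, a noncoding host whose spliced RNA is unstable in growing cells, was called lower by all 4 of its probe sets, with fold changes from −1.06 to −0.42. The brightest read 11.26, 11.35 and 11.38 with VPA and 11.78, 11.71 and 11.75 with DMSO. Snord47 (U47), in one of its introns, had a fold change of −0.57 ± 0.1356. Nop56, itself a box C/D core protein, fell by 0.44: it read 12.32, 12.33 and 12.32 with VPA and 12.77, 12.72 and 12.79 with DMSO. Its Snord57 was not called, as given above, and Chd8, a chromatin remodeller, fell by 0.26 while its Snord8 was not called. RefSeq also places Snord8 inside another gene, Gm26590, so which of these is its host is not settled here. Srcap, another chromatin remodeller, fell by 0.71, more than Snora30 inside it (−0.28).

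**Figure D3:**
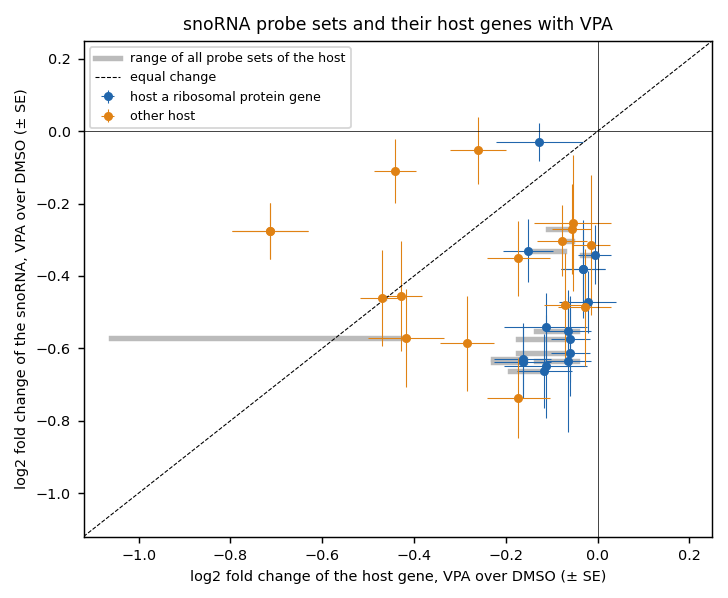
Log2 fold change, VPA over DMSO, of 31 snoRNA probe sets (vertical) against that of the brightest probe set of the host gene (horizontal), each ± SE of the limma fit; grey bars span all probe sets of the host and the dashed line marks equal change. By the brightest probe set, ribosomal protein hosts lie between −0.16 and −0.01 (down to −0.23 over all their probe sets) while all but 1 of their snoRNA probe sets lie below −0.3, and 25 of the 31 points lie below the dashed line.

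Other small RNAs on the array were read beside the snoRNAs. Of 22 probe sets for small nuclear, Cajal body, Y, RNase P, telomerase, 7SK and other snoRNA-type RNAs outside the naming rule, 3 were called lower with VPA (13.6%, near the 11% of all probe sets) and none higher, with a median of −0.12. The 3 were Scarna13 (−0.39), typed as a guide RNA by RefSeq and lying in the noncoding host Snhg10, and Gm12238 (−0.35) and AF357341 (−0.25), both typed as snoRNA. The others typed as snoRNA, DQ267101 (−0.23) and DQ267102 (−0.13), were not called, nor were the guide RNAs Scarna17 (−0.01) and Scarna8. No probe set of the remaining types was called. Rnu3a, a U3 gene, had a fold change of −0.12 ± 0.1806 (adjusted p 0.709, limma). Rn7sk, the 7SK RNA that restrains transcription elongation, differed by 0.00 on its brighter probe set. The lowest fold change of the 22 was that of the Y RNA Rny1, −0.70 ± 0.2747, which was not called (adjusted p 0.0536, limma). The highest was that of Scarna8, 0.04. MicroRNA probe sets had 28 of 299 called lower (9.36%, near the 11% of all) and none higher, with a median of −0.06.

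Proteins that bind or make snoRNAs were read from lists. Of all probe sets tested, 11% were called lower with VPA and 15.5% higher. Of the box C/D core, Nop56 (−0.44) and Nop58 (−0.37) fell, and fibrillarin (Fbl, 0.05) and Snu13 (−0.11) were not called. In the box H/ACA core, dyskerin (Dkc1, −0.27) fell and Gar1 (−0.16), Nhp2 (−0.11) and Nop10 (0.00) were not called. Among 12 measured assembly and maturation factors 2 fell, coilin (Coil, −0.72), the scaffold of Cajal bodies, and Naf1 (−0.37), an H/ACA assembly factor, and the median of the list was −0.02. The 41 measured genes for RNA polymerase I and precursor processing had 16 lower and 1 higher (Polr1e, 0.27), with a median of −0.15. Utp20 (−0.50), a processing factor, and Ubtf (−0.45), a polymerase I transcription factor, led the 16.

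Noncoding snoRNA host genes, listed whether or not they hold a measured snoRNA, had 6 of 8 measured genes called lower with VPA and 1 higher. Over all probe sets tested, 11% were called lower and 15.5% higher. Snhg5 (−0.77), Snhg16 (−0.61) and Dancr (−0.60) fell most, and Snhg11 was the one that rose (0.52). Of 32 measured protein-coding host genes in the corresponding list 14 were called lower, led by Rpl12 (−0.68), Rpl30 (−0.66) and Eif4a2 (−0.54). The median of that list was −0.09.

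Paracetamol, an analgesic classed as a non-teratogen, gave the next lowest level. Its arrays averaged 9.05, 8.95 and 9.02 over the 56 probe sets, against 9.26, 9.12 and 9.34 with DMSO, all 3 below the lowest DMSO array. Of the 56, 8 were called lower (14.3%), where 4.15% of all probe sets were, and none higher, where 4.61% were. All 3 paracetamol arrays lay below all 3 DMSO arrays for 31 probe sets (55.4%), compared with 12% of all probe sets. The median of the 56 was −0.22 and that of all probe sets was 0.01. Of the 10 pluripotent cell markers 6 were also called lower with paracetamol, with a median of −0.19 over the list (Zfp42 −0.38, Nanog −0.28), and their part in the result was not tested.

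The 8 were Snord73b (−0.51), Snord87 (−0.49) in Snhg6, Snord47 (−0.44), Snora33 (−0.42), Snora62 (−0.40), Snora74a (−0.39), Snord73a (−0.37) and Snord52 (−0.36). Snora62 (E2), an H/ACA RNA in the laminin receptor gene Rpsa that acts in precursor processing in Xenopus oocytes, read 8.01, 7.70 and 7.78 with paracetamol and 8.15, 8.20 and 8.34 with DMSO. The groups did not overlap, and the fold change was −0.40 ± 0.0868 (adjusted p 0.00132, limma). It was the only one of the 8 still called when any single paracetamol or DMSO array was left out. Snord47 and Snord73b reached the highest adjusted p of the 8 when 1 array was left out. Without paracetamol replicate 2 these were 0.361 for Snord47 and 0.322 for Snord73b (limma). Snord73b read 9.10, 8.34 and 8.93 with paracetamol and 9.39, 9.26 and 9.27 with DMSO. Without paracetamol replicate 2 the count of 8 became 3, and without DMSO replicate 1 or 3 it became 5 or 4.

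Loratadine, an antihistamine, was the one compound with calls in both directions. It had 3 probe sets higher (5.36%), where 10.9% of all were, and 3 lower (5.36%), where 8.26% of all were. Outside the 56, 24 of 41 probe sets that carry several symbols including a snoRNA were called higher, all of them Snord116 copies that share sequence. Snord37 (U37) in the elongation factor gene Eef2 read 8.41, 8.64 and 8.64 with loratadine and 8.07, 7.72 and 8.23 with DMSO, a rise of 0.56 ± 0.1932. Snord22 (0.35) and Snord42b (0.28) also rose, and Snora16a (−0.49), Snora74a (−0.44) and Snora62 (−0.37) fell. Without DMSO replicate 2, the DMSO array with the lowest mean of the 56, none of the 3 rises was called (adjusted p 0.184 for Snord22, 0.226 for Snord37 and 0.284 for Snord42b, limma). The falls of Snora74a and Snora62 were called whichever array of loratadine or DMSO was left out, while that of Snora16a had an adjusted p of 0.194 without loratadine replicate 2. The count of 6 became 3 without DMSO replicate 2, loratadine replicate 2 or loratadine replicate 3.

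Clozapine, an antipsychotic, lowered 2 of the 56 (3.57%), where 0.211% of all probe sets were called lower and 1.1% higher. Snora16a, in the noncoding host Snhg12, read 10.34, 10.36 and 10.38 with clozapine and 11.23, 11.12 and 11.19 with DMSO. These 2 sets of arrays were far apart and tight. Pooled over the 20 groups, the SD of Snora16a within groups was 0.206, where the median of the 56 was 0.140. Its fold change of −0.82 ± 0.1576 (adjusted p 0.00118, limma) was the largest fall of any member outside VPA. Snora74a read 9.26, 9.27 and 9.29 with clozapine and 9.81, 9.73 and 9.91 with DMSO, a fold change of −0.54 ± 0.1003. Both calls held when any single clozapine or DMSO array was left out.

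Glybenclamide, a sulfonylurea, had 5 lower (8.93%), where 2.75% of all probe sets were, and none higher, where 6.79% were. These were Snora16a (−0.55), Snora74a (−0.43), Snora31 (−0.36) in Tpt1, Snord96a (−0.29) and Snora62 (−0.28). Snora16a read 10.78, 10.61 and 10.49 with glybenclamide and 11.23, 11.12 and 11.19 with DMSO, with no overlap. Only the call of Snora74a held when each glybenclamide and DMSO array was left out in turn. The count of 5 became 1 without glybenclamide replicate 3, 3 without replicate 2 and 2 without DMSO replicate 3.

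Dexamethasone, a glucocorticoid, had 4 lower (7.14%), where 4.74% of all probe sets were, and none higher, where 1.51% were. Snord53 (−0.53), Snora62 (−0.37), Snord33 (−0.34) and Snord82 (−0.34) were the 4. DMSO had the highest group mean for Snord53, Snora62 and Snord33, and the second highest for Snord82. Snord53 read 11.81, 11.78 and 11.26 with dexamethasone and 12.12, 12.12 and 12.18 with DMSO, and replicate 3 held its lowest value. That array also had the highest mean of the 56 probe sets in the series, 9.51, against 9.07 and 9.02 on the other two dexamethasone arrays. Unlike those, it is among the 8 arrays of the series whose titles carry a letter b, which the labels do not explain. Its signals had an interquartile range of 2.998, one of the 3 narrowest (the other two were hydrochlorothiazide replicates 1 and 2). Without it 8 probe sets were called, but Snord53, Snora62 and Snord82 were not among them (adjusted p 0.214, 0.0666 and 0.219, limma). Leaving out dexamethasone replicate 2 instead also gave 8. Omitting DMSO replicate 1 gave 1, and omitting DMSO replicate 3 gave 0.

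Retinoic acid, a morphogen, had 2 lower (3.57%), where 3.92% of all probe sets were, and none higher, where 5.9% were. They were Snora74a (−0.36) and Snora62 (−0.29). Without retinoic acid replicate 2 the count was 0, and without replicate 3 it was 4, while leaving out DMSO replicate 2 or 3 gave 1. Chlorthalidone, a diuretic, also had 2 lower (3.57%), where 1.14% of all probe sets were, and none higher, where 1.44% were. Snora33 had 8.74, 8.52 and 8.52 with chlorthalidone and 9.00, 8.77 and 9.13 with DMSO (−0.37), and Snora62 had a fold change of −0.30. Leaving out any of the 6 arrays of chlorthalidone and DMSO reduced the count to 0 or 1.

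In the other 11 compounds none of the 56 was called by limma. None of the 21789 probe sets tested was called for penicillamine, thalidomide, azacytidine, fluconazole, topiramate or methotrexate (0% each). The shares of all probe sets called in either direction were 0.119% for dimethadione, 2.17% for hydrochlorothiazide, 0.197% for metoclopramide, 0.33% for ondansetron and 8.9% for sulfasalazine. At an unadjusted p under 0.05, dimethadione had 13 of the 56 lower, where 3.62% of all probe sets were, and 5 higher, where 6.75% were. Hydrochlorothiazide had 13 lower, where 12.3% of all were, and 0 higher, where 9.41% were. Topiramate had 8 lower (6.86% of all) and 0 higher (4.96% of all), and azacytidine had 5 lower (3.87% of all) and 2 higher (4.19% of all). Elsewhere the counts were small in both directions. Metoclopramide had 2 lower (6.11% of all) and 5 higher (6.48% of all), and penicillamine 1 lower (0.991% of all) and 4 higher (7.5% of all). For thalidomide they were 1 lower (5.31% of all) and 3 higher (2.3% of all), and for fluconazole 1 lower (4.09% of all) and 3 higher (2.62% of all). Sulfasalazine had 1 lower (14.8% of all) and 2 higher (13.2% of all), methotrexate 1 lower (3.28% of all) and 0 higher (3.31% of all), and ondansetron 0 lower (8% of all) and 0 higher (6.53% of all). With hydrochlorothiazide, 4 were called without DMSO replicate 2 and 5 without hydrochlorothiazide replicate 3. Leaving out an array gave 1 call in dimethadione (without its replicate 3) and in sulfasalazine (without its replicate 3 or DMSO replicate 3). The lowest member was most often Snord53, whose highest group mean was that of DMSO. The highest was most often Snord58b, which with Snord61 is among the dimmest probe sets (mean signals 5.02 to 5.04).

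Across the 18 compounds other than VPA there were 29 calls, 26 lower and 3 higher, in 17 of the 56 probe sets. Some compounds with few or no calls had many of the 56 with all 3 arrays below all 3 DMSO arrays. The shares were 33.9% for chlorthalidone (10% of all probe sets), 30.4% for hydrochlorothiazide (9.51%), 28.6% for clozapine (7.07%) and 26.8% for dimethadione (4.9%). Shares above DMSO were 1.79%, 5.36%, 16.1% and 10.7% (9.99%, 8.33%, 10.1% and 9.78% of all). Snora62 was called lower in 7 compounds with VPA included, Snora74a in 6, Snora16a in 4 and Snora33 in 3. These contrasts share the same 3 DMSO arrays, so the repeats are not independent: Snora62 had its highest group mean in DMSO and Snora74a and Snora16a their second highest. Of the 29 calls, 6 held when each array of the compound and of DMSO was left out in turn. Those 6 were Snora74a with clozapine, glybenclamide and loratadine, Snora16a with clozapine, and Snora62 with loratadine and paracetamol. Of the 41 with VPA, 31 held in the same way, and 31 was also the count without DMSO replicate 3.

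Asked without DMSO as the only control, by limma's F test over all 20 groups, 49 of the 56 differed among groups (87.5%), where 74.1% of all probe sets did. The smallest adjusted p-values were those of Snora75 (9.96e-09), Snora74a (3.79e-08), Snord22 (7.04e-08) and Snord52 (7.15e-08). Between the 10 teratogens and the 9 non-teratogens, with the compound as the unit, none of the 56 was called by limma, and neither was any of the 21789 probe sets tested (0%). Only the 2 identical Snord118 probe sets had an unadjusted p under 0.05: U8 averaged 7.28 over teratogens and 7.05 over non-teratogens, a difference of 0.24 ± 0.1088 (unadjusted p 0.0397, adjusted p 0.976, limma).

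Replicate arrays differed more for snoRNA probe sets than for protein-coding probe sets of like signal. The SD within groups, pooled over 20 groups, had a median of 0.140 over the 56, against 0.0871 as the typical value of the 200 protein-coding probe sets nearest in mean signal. The ratio of a snoRNA's SD to the median of its 200 neighbours had a median of 1.70 and ran from 0.985 to 3.14. It exceeded 1 for 54 of the 56. The SD was above the neighbours' 90th percentile for 45, and above that of all 200 neighbours for 14.

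Snord49b had the highest ratio, with an SD of 0.198 against 0.0630 for its neighbours. Snord35a (3.02), Snord118 (2.98), Snord53 (2.96) and Snord42a (2.95) followed. At the other end Snora30 (0.985), Snord104 (1.04), Snord95 (1.06) and Snora62 (1.16) varied about as much as protein-coding probe sets. Box C/D probe sets had a median ratio of 1.88 and box H/ACA of 1.61.

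**Figure D4:**
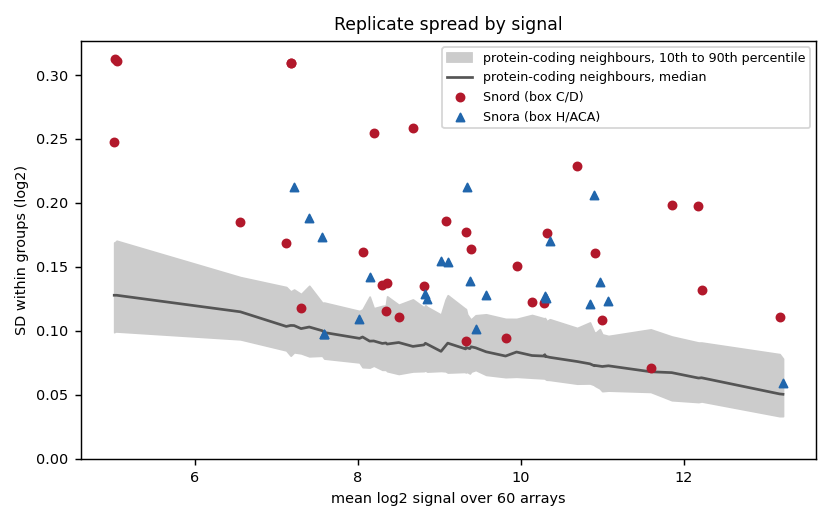
SD within groups of each snoRNA probe set (vertical, log2) against its mean log2 signal over 60 arrays (horizontal), with the median (line) and the 10th to 90th percentile (grey) of the 200 protein-coding probe sets nearest in signal. Most snoRNA points, 45 of 56, lie above the grey band.

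By group, the ratio exceeded 1 in 19 of 20 groups. It was highest with methotrexate (2.53), thalidomide (2.41) and dexamethasone (2.24) and lowest with penicillamine (0.988), and it was 1.51 with VPA and 1.69 with DMSO. With penicillamine the median SD was 0.111 for the snoRNA probe sets and 0.125 for their neighbours. Penicillamine replicate 2 had a mean deviation of 0.104 from its group over all probe sets. The spread was in part shared between snoRNAs. The mean correlation of 2 probe sets' deviations from their group means was 0.297 over the 51 symbols, with 1 probe set each, and 0.0565 over 20346 protein-coding probe sets (0.274 for the snoRNAs without dexamethasone replicate 3). These correlations are a description over 60 arrays, with no test. An array's mean deviation over the 56 had an SD of 0.0778, against 0.0191 for the neighbours. Dexamethasone replicate 3 stood at 0.31, and the DMSO arrays at 0.02, −0.12 and 0.10. The VPA arrays stood at 0.02, −0.01 and 0.00, and the difference of VPA from DMSO was −0.42 in the mean of the 56. Deviations from group means do not measure a shift shared by a whole group, and its part in that difference was not tested. RNA was purified on spin columns, and the values used here do not measure how much short RNA each extract kept.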

How the data were processed

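Total RNA of R1 cells was hybridised to 60 arrays as biotin-labelled cDNA; per the labels' protocols it was extracted on RNeasy columns. The authors made the deposited log2 signals with RMA, per the submitters' processing notes, and its version and the genome build were not given in the sources used here. Of 35556 probe sets, 23410 are annotated, 21789 with a single symbol. Limma 3.58.1 in R 4.3.3 was fitted to the deposited values of all 60 arrays, with 20 group means (40 residual and 7.31 prior degrees of freedom), with Benjamini-Hochberg adjustment over 21789 probe sets. It was tested on simulated data first. Arrays have no read depth; 3 per group limits the precision. Hosts are RefSeq genes that contain the snoRNA gene. Where several did, the one on a list of known hosts was taken, or else the first gene given (Snord8). Genes named are the leading called members of each compound, the extremes by spread, signal and F test, those with a role in precursor cleavage, and list leaders. The members and lists were chosen with earlier results of these data known. Alternatives are given in the closing section.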

Additional observations from a re-analysis of the deposited data

Results flagged for a closer look

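Outside the 56 probe sets, 41 others carry several symbols that include a snoRNA and were not among the members described above. They were tested in a fit of all 35556 probe sets, where 8.5% were called lower with VPA, 7.98% higher with loratadine and 2.79% lower with paracetamol. Of these, 11 were called lower with VPA than with DMSO and none higher (limma). All 24 Snord116 probe sets, which hold 7 distinct value profiles, were uncalled with VPA, with fold changes from −0.31 to −0.27 and adjusted p from 0.106 to 0.184. The 11 were among the other 17. The probe set for Snora28 and Eif5 was lowest, at 8.66 to 8.75 with VPA and 9.44 to 9.77 with DMSO, a log2 fold change of −0.91 ± 0.12. Those for Snord68 and Rpl13 (−0.71), Snord1c and Snord1b (−0.70, 2 identical probe sets) and Snord34 and Rpl13a (−0.65) followed. Such probe sets can read either gene of the pair, and which of them fell was not tested. Leaving out 1 VPA or DMSO array at a time gave 10 to 13 calls.

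With loratadine 24 of the 41 were called higher than with DMSO and none lower, and these were the 24 Snord116 probe sets. The median over the 24 was 10.35, 10.38 and 10.11 on the loratadine arrays and 9.87, 9.70 and 9.94 on the DMSO arrays, with no overlap. Their log2 fold changes ran from 0.42 to 0.46, with SEs from 0.129 to 0.136 and adjusted p from 0.0174 to 0.0227 (limma). Because they share sequence and hold 7 profiles, the 24 are not separate observations. None was called higher without loratadine replicate 1, loratadine replicate 2 or DMSO replicate 2, while all 24 were without any other loratadine or DMSO array. That DMSO array is also the one without which no member's rise with loratadine was called.

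With paracetamol 4 of the 41 were called lower and none higher (limma). They were Snord68 with Rpl13 (−0.36, adjusted p 0.0122), Snord34 with Rpl13a (−0.34, adjusted p 0.0201) and the 2 identical probe sets of Snord1c and Snord1b (−0.51, adjusted p 0.0445). The count was 0 without paracetamol replicate 2, DMSO replicate 1 or DMSO replicate 3, and 2 to 5 without any other of these arrays. Dexamethasone and glybenclamide each had 1 of the 41 called lower, and the other compounds had none. The members and these probe sets were compared with the same 3 DMSO arrays.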

How the results depend on the processing

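Among the 56 snoRNA probe sets, the VPA count of 41 ran from 31 (without DMSO replicate 3) to 49 (array weights) and no call changed sign. Array weights, which favour arrays close to their group, raised the counts of most compounds: to 2 for penicillamine and thalidomide, 8 for azacytidine, 5 for retinoic acid, 7 for dexamethasone, 6 for dimethadione, 1 for fluconazole, 9 for topiramate, 3 for methotrexate, 16 for chlorthalidone, 19 for clozapine, 25 for glybenclamide, 30 for hydrochlorothiazide, 21 for loratadine, 4 for metoclopramide, 29 for paracetamol and 7 for sulfasalazine. With each array's interquartile range as a covariate the counts were 0 for dexamethasone, 1 for dimethadione, 8 for glybenclamide and 14 for paracetamol. Without the 3 arrays of narrowest range, chosen after seeing the data, they were 8 for dexamethasone, 6 for chlorthalidone, 9 for glybenclamide, 12 for loratadine and 1 for sulfasalazine. With only a compound's and the DMSO arrays they were 0 for retinoic acid and dexamethasone, 10 for loratadine and 1 for sulfasalazine. Quantile normalisation left 1 for dexamethasone, testing all probe sets 0 for chlorthalidone, and leaving out dim probe sets gave 1 each for dimethadione and sulfasalazine, as did trend and robust settings and the letter b covariate for sulfasalazine. Leaving out 1 array at a time gave 0 to 4 for retinoic acid, 0 to 8 for dexamethasone, 0 to 1 for dimethadione, chlorthalidone and sulfasalazine, 1 to 6 for glybenclamide, 0 to 5 for hydrochlorothiazide, 3 to 8 for loratadine and 3 to 11 for paracetamol. The cause was not tested. Over all probe sets, VPA had 3374 higher and 2404 lower, and 5305 and 4487 with array weights. The F test count ran from 38 (dim probe sets left out) to 56 (array weights), the contrast of VPA with the other compounds from 33 to 47, and the spread ratio from 1.51 to 1.89; the class count was 0 throughout. No paired analysis was possible because the labels number no replicates. Detection calls over background were not used here, so none is given for dim probe sets such as Snord58b.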
